A study of Mus musculus with 2 samples.

Results

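Of 33226 CTCF summits on mouse chromosomes 1 to 19, 5290 (15.9%, 95% Wilson interval 15.5 to 16.3) had no CTCF motif within 150 bp and form the group described here. A motif was a match at p 1e-04 or better to a 19-base matrix built from 192 CTCF sequences listed by the authors, on either strand and wholly within the window. These sequences came from the authors' own motif search around binding sites of the cohesin subunit RAD21 in ESC, not around CTCF summits. The matrix consensus, shown because every call below rests on it, is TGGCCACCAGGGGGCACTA. The rule read only sequence, but in a window around a summit that MACS had placed from the CTCF tags. The tags thus entered the rule through the place of the summit, though not through their number. At the same windows placed 2000 bp to either side, 80.6% held no match (80.3 to 80.9).

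CTCF is a zinc finger protein that reads a long DNA motif with a varying subset of its fingers and halts the loop-extruding cohesin ring. Its central fingers contact the core of the motif, and fingers nearer the C terminus contact an additional upstream element at part of the sites. ChIP recovers fragments that are crosslinked to the protein directly or through other proteins, so a summit need not hold a motif. In mouse embryonic stem cells (ESC), CTCF marks domain borders and many promoters.

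The study profiled R1/E mouse ESC in which a stably integrated BAC transgene makes CTCF with GFP (a LAP tag) at its C terminus, beside the untagged endogenous protein. Chromatin was crosslinked with 1% formaldehyde, sonicated to about 500 bp and precipitated with a goat GFP-antibody in 1 library and with goat IgG in 1 library. The label of the IgG library also calls it input DNA. Depth was 8391191 tags for CTCF and 7988889 for IgG, each tag 35 bp long, and the deposited list holds 33788 summits in all. With 1 library per antibody there is no replicate, and all intervals cover counting error only. Within a stretch of 170 kb around Ctcf on chromosome 8, where IgG tags are raised, lie 19 summits, of which 5 are members, with heights of 16 to 54 tags and 1 to 8 IgG tags within 150 bp. They are counted but not named as examples.

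Several kinds of sequence stood out among the members, and the windows below show them before the values. All coordinates are mm9, and each set holds the tallest members of its kind whose window overlaps no exon and that no earlier set covers. In one set, the capitals mark the best match to the matrix with column 12 left out, that is, a core shorter by 1 base.
Pxmp2 (chr5:110713724-110713791, minus strand): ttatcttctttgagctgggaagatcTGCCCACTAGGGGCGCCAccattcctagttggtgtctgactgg
4933432B09Rik (chr15:79481157-79481224, minus strand): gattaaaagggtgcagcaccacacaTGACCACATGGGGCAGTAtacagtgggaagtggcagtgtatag
Lrrc4c (chr2:95514679-95514746, plus strand): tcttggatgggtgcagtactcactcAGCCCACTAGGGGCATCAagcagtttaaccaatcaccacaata
Pdyn (chr2:129522033-129522100, minus strand): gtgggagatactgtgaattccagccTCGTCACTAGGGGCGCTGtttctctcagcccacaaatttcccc
Klhdc7a (chr4:139657249-139657316, minus strand): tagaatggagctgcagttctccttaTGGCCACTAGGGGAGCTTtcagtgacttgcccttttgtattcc
In another set, the capitals mark the letters TGCANTNC, where N is any base, and the letters CC that follow after 9 bases.
Ass1 (chr2:31328069-31328129, plus strand): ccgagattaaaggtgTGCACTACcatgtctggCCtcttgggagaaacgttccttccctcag
Adsl (chr15:80778636-80778696, plus strand): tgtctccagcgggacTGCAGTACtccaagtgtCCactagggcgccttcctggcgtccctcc
Mkrn1 (chr6:39350510-39350570, plus strand): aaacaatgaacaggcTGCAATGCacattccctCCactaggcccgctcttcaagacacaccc
Keap1 (chr9:21045930-21045990, plus strand): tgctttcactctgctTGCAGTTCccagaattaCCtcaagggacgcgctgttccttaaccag
Rfc3 (chr5:152453858-152453918, plus strand): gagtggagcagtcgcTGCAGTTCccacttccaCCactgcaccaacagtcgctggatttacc
At the tallest member near a gene start, the capitals mark the best stretch for the unedited matrix, just below the threshold.
Timm22 (chr11:76220197-76220347, plus strand): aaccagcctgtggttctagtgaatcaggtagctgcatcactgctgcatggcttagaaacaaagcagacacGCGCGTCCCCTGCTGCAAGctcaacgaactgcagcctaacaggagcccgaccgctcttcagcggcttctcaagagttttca
For comparison, the tallest member with none of the features counted below has its best stretch outside the 151 bases shown, so no letter is in capitals.
Trmt12 (chr15:58701564-58701714, plus strand): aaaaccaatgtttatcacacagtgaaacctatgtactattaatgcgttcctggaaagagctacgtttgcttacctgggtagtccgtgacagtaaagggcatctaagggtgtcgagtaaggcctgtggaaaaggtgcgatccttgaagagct

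The members were lower than the other summits. Summit height, the number of overlapping tags at the summit as given by the authors, had a median of 10 in members (quartiles 8 and 13, highest 54) and of 13 in the 27936 others (quartiles 10 and 17, highest 89). The order-statistic intervals of both medians have no width at whole tags, and the distributions overlap widely. The median peak score, -10 times the log10 of the MACS p-value, was 84.2 (82.5 to 86.3) in members and 125 (124 to 127) in others. Peaks of members were also narrower, with a median of 738 bp (727 to 751) beside 849 bp (845 to 852).

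The share of summits without a motif fell with height. It was 36.4% (35 to 37.9) at heights of 6 to 8, 22.1% (21.2 to 22.9) at 9 to 11 and 12.9% (12.1 to 13.6) at 12 to 14. Among taller summits it was 7.27% (6.70 to 7.88) at 15 to 19, 4.82% (4.22 to 5.50) at 20 to 29 and 3.71% (2.51 to 5.46) at 30 and more. Neighbouring classes do not overlap up to 29 tags, while the last pair does. At flanking positions the share stayed between 77.0% and 81.2% in every height class. Members were found on all 19 chromosomes, at 13.8% of summits on chromosome 5 to 18.5% on chromosome 18.

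**Figure D1:**
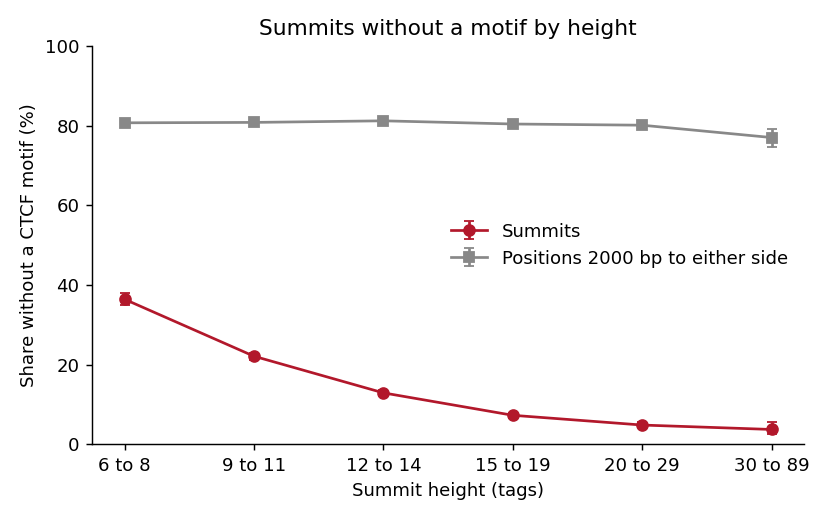
Share of summits without a CTCF motif (y, %) by summit height in tags (x), beside positions 2000 bp to either side; bars are 95% Wilson intervals. The share falls from 36.4% to 3.71% at summits and stays near 80.6% at the flanking positions.

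How close the members came to the threshold was varied. The threshold at p 1e-04 stood at 8.17 bits of a possible 26.4, and the median best score of members was 3.76 bits (quartiles 1.07 and 6). In 3560 members (67.3%, 66.0 to 68.5) the best score reached p 1e-03, or 1.96 bits, against 61.3% (60.9 to 61.8) of flanking positions without a match. The 3 members nearest below the threshold, in an intron of Tiam1, upstream of Ccdc88c and between genes near Gm6553, scored 8.16 bits at heights of 10, 31 and 11. The 3 other summits nearest above it, in introns of Tsc1, Mbtd1 and Igsf21, scored 8.17 bits at heights of 16, 12 and 14.

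**Figure D2:**
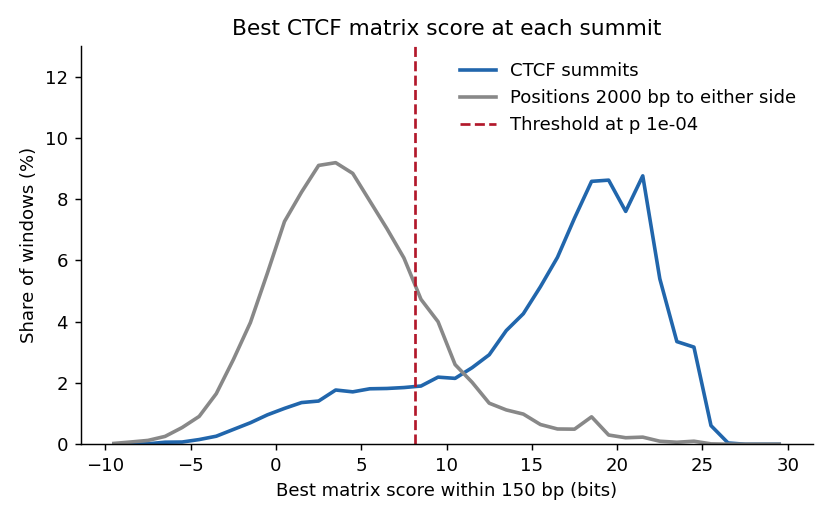
Best matrix score within 150 bp in bits (x) against the share of windows in % (y) for all summits and for positions 2000 bp to either side, with the threshold at 8.17 bits. Members lie left of the line, where 80.6% of the flanking positions also lie.

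All summits were called by MACS from these same CTCF tags over IgG, so an excess of CTCF tags is given at each, and only its size in members and others is compared here. The excess was smaller at the members. Within 150 bp of the summit the members held 66459 CTCF and 6064 IgG tags, which at equal depth is 10.4 CTCF tags for each IgG tag (exact interval 10.2 to 10.7). The others had a ratio of 15.1 (14.9 to 15.2), so that the members stood at 0.693 of the others (0.673 to 0.713). With 1 tag added to each library, 3367 members (63.6%, 62.3 to 64.9) reached a ratio of 5, beside 79.0% of all summits. The difference from the others was -18.3 percentage points (-19.7 to -16.9). IgG tags within 150 bp were at 1.18 times the genome rate in members (1.15 to 1.21) and at 1.10 times in others (1.09 to 1.11). At equal height they were also more frequent in members, by 1.23 times (1.15 to 1.31) at 6 to 8, 1.24 times (1.18 to 1.30) at 9 to 11 and 1.21 times (1.14 to 1.28) at 12 to 14 tags. From 15 tags on the intervals of this ratio include 1. Within 250 bp the IgG excess over the others was gone, at 1.09 times the genome rate in both. The genome rate was taken over all bases, also those in repeated sequence. Tag-length stretches with more than 1 exact copy made up 0.936% of positions within 50 bp of member summits and 1.98% at others. At positions 2000 bp downstream of members they made up 7.24%. The part of this in the IgG rates was not tested.

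Tags on the plus and minus strands lay closer together at the members. The medians of the 5′ ends within 300 bp were 118 bp apart (116 to 120) in members and 141 bp (140 to 142) in others. The separation was smaller in members at 6 to 8 tags (107 beside 126 bp), 9 to 11 (116 beside 132), 12 to 14 (116 beside 137) and 15 to 19 (129 beside 140), with intervals that do not overlap. At 20 to 29 tags it was 141 bp (134 to 148) beside 150 (148 to 152), where the intervals touch. At 30 and more, the 24 members gave 154 bp (135 to 172), which overlaps the 159 bp of the others.

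A core that lacked 1 base was found in a part of the members, and more often in the tall ones. With column 12 of the matrix left out, 197 members (3.72%, 3.25 to 4.27) held a match at p 1e-06, against 0.144% (0.115 to 0.180) of flanking positions without a motif. Among the 771 members of height 15 or more the share was 9.99% (8.06 to 12.3). Leaving out any of columns 7 to 14 gave 2.65% to 3.72% of members. Columns 10 to 14 of the consensus are all G, so these edits overlap and do not place the missing base. A match with any 1 column left out stood in 435 members (8.22%). Shares for the end columns were low, at most 0.113% for columns 2 to 5, which the rule itself brings about, since a site that matches without an end column mostly matches the whole matrix. An added base was rarer, with the highest share, 1.04% (0.800 to 1.35), for a base before column 14, beside 0.121% at flanking positions. Any deletion or insertion was matched in 529 members (10%, 9.22 to 10.8) and in 1.98% (1.87 to 2.10) of flanking positions. In the 197 members with column 12 left out, the match lay a median of 53.5 bp from the summit (quartiles 23.5 and 87.5), and in the 24110 others with a motif at p 1e-05 that motif lay at a median of 52.0 bp. These edited matrices were chosen after the sequences had been seen and are given as a description.

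**Figure D3:**
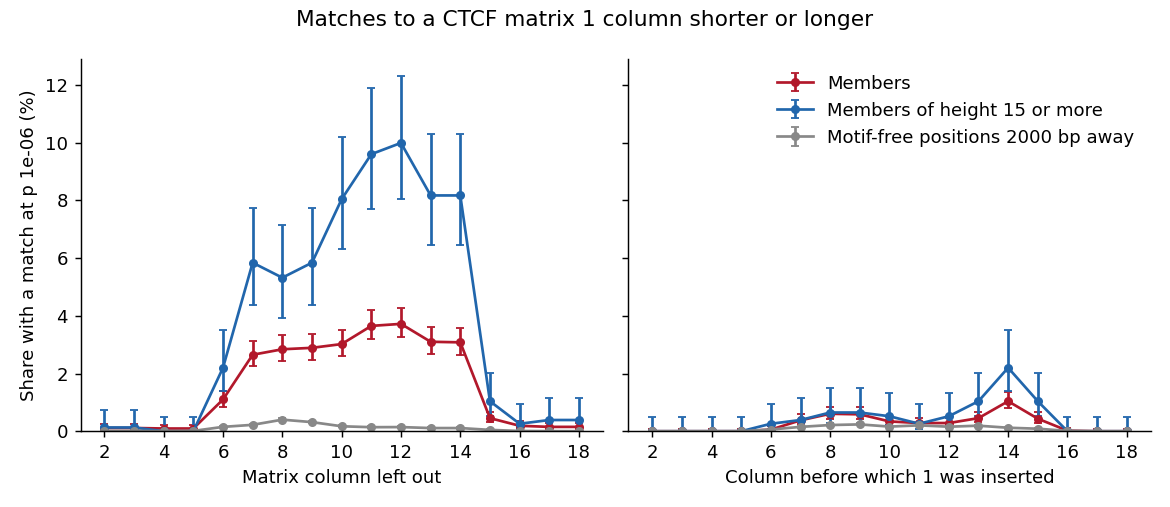
Share of windows (y, %) that match the CTCF matrix at p 1e-06 with 1 column left out (left) or 1 column without preference inserted (right), by column (x), for all 5290 members, the 771 of height 15 or more, and motif-free positions 2000 bp away; bars are 95% Wilson intervals. With 1 column left out, members rise over the flanking positions at columns 7 to 14, up to 9.99% in the tall ones.

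The 5 tallest members printed with a shorter core illustrate this. That in an intron of Pxmp2, which encodes a peroxisomal membrane protein, had a height of 29 with 33 CTCF and 0 IgG tags within 150 bp. That in Pdyn, the gene of the opioid precursor prodynorphin, had 34 CTCF and 2 IgG tags. The summit in 4933432B09Rik had 34 CTCF and 0 IgG tags, and its peak also held a match of 24.11 bits to the whole matrix 1312 bp away. The summit between genes near Lrrc4c had 32 and 2, and that in Igsf21, nearest to the start of Klhdc7a, 29 and 1. The unedited matrix scored 5.85 to 7.22 bits there.

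The upstream element stood where it stands in the others in few members. On the strand of the best match, TGCANTNC began 23 bases before the match centre in 110 members (2.08%, 1.73 to 2.50) and in 3465 others (12.4%, 12 to 12.8). In members that best match lies below the threshold by the rule. A lower share at a fixed spacing from it is therefore favoured in advance. At the other 120 spacings within 60 bases the members had a median of 2 and at most 19 copies. Searched without the matrix, on both strands, the element followed after 9 bases by CC stood in 290 members (5.48%, 4.90 to 6.13), in 12.7% of the others and in 1.21% (1.02 to 1.44) of flanking windows. With 4 to 15 bases between, every spacing but 9 gave at most 2.02% of members. This spacing was chosen after it had been seen.

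**Figure D4:**
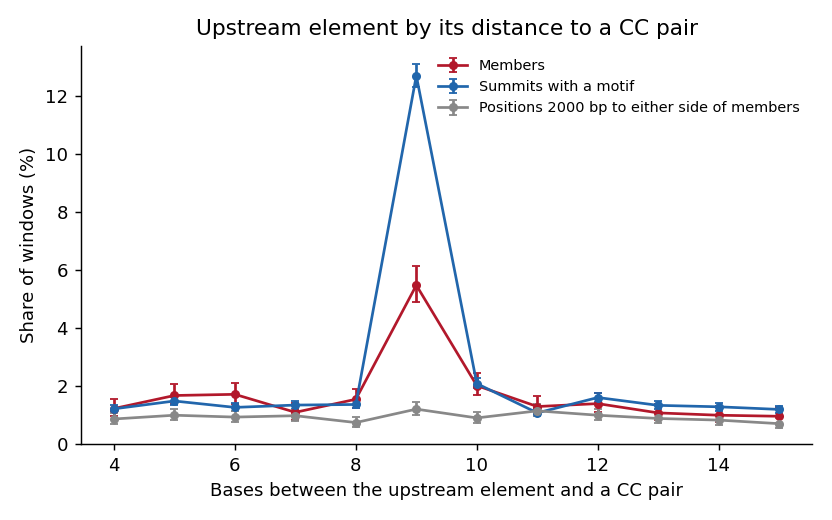
Share of windows (y, %) that hold the upstream element followed by CC, by the number of bases between them (x), in members, in summits with a motif and at positions 2000 bp to either side of members; bars are 95% Wilson intervals. At 9 bases members reach 5.48%, above the flanking 1.21% and below the 12.7% of the others.

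The tallest of these members lay in an intron of Ass1, the argininosuccinate synthase of the urea cycle, at height 36 with 37 CTCF and 5 IgG tags, and its peak also held a match of 24.21 bits 1426 bp away. A summit of the same height lay 232 bp upstream of Adsl, which encodes adenylosuccinate lyase of purine synthesis, with 41 CTCF and 1 IgG tags. That in Mkrn1, an E3 ubiquitin ligase gene, had 36 and 0 tags. A summit 2162 bp upstream of Keap1, which represses the oxidative stress response, had 32 and 1, and one 95 bp upstream of Rfc3, a clamp loader subunit of DNA replication, had 32 and 3.

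Several of the short words raised at the members resembled the CTCF consensus. The 10 words of 8 letters most raised over flanking windows were picked on odd chromosomes and counted on even ones, within 100 bp of the summit. CCACTAGG was held by 71 of 2338 members there (3.04%), against 8 and 9 flanking windows downstream and upstream. AGCGCCCC stood in 60 members against 3 and 4. AGGGGCGC stood in 33 members (1.41%) against 3 and 6 flanking windows, and in 0.255% of the others. CCACTAGG was more frequent in the others, at 5.66%, and AGCGCCCC stood in 2.46% of them beside 2.57% of members. At its best place, CCACTAGG is identical to the consensus at 7 of 8 letters and AGGGGCGC at 6, while ACAGCGCC, held by 42 members, is so at 5. The complete core CANNAGNGG stood in 17.8% of members (16.8 to 18.8), in 18.6% of flanking windows and in 60.6% of others. Unlike the members, these flanking windows were not chosen to lack a motif, so the rule bears on that comparison too. Members and others were parted by these same bases, so their differences in the core and in these words are a description of the rule.

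Sites of other factors lay on either side of the flanking level in members. The ESRRB site TCAAGGTCA, read by an orphan nuclear receptor of ESC, stood in 1.10% of members (0.849 to 1.41), beside 0.671% of flanking windows (0.532 to 0.846) and 0.684% of others. The GATA site AGATAA stood in 17% of members (16 to 18), in 15.1% of flanking windows and in 14.1% of others. The octamer ATTTGCAT stood in 2% beside 1.74% and 1.73%. The B box GTTCGANNC, part of the promoter of transfer RNA genes and of elements derived from them, was scarcer at 0.794% (0.588 to 1.07) than in flanking windows at 2.34% (2.07 to 2.65). The others were alike in this, at 0.916% (0.811 to 1.04), and the interval of their difference from members includes 0. The AP-1 site TGANTCA was at 9.51% beside 8.40% of flanking windows and 8.69% of others, where the interval of the difference from members includes 0. No test was made over these 22 words, which were read on both strands.

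The members were slightly poorer in G and C. Median GC content within 150 bp was 44.5% (44.5 to 44.9), beside 46.5% in others and 44.9% at positions 2000 bp downstream of members. The rule read these same bases, so this difference belongs in part to the rule: among flanking positions, the share without a match fell from 90.3% under 40% GC to 61.2% at 60% GC and more. Windows rich in CpG, with GC of at least 0.55 and an observed-to-expected ratio of at least 0.65, made up 1.02% of members and 1.34% of others, and the interval of the difference includes 0. With the motif threshold at p 1e-05 the GC medians were 45.8% and 46.5% with overlapping intervals, and the CpG-rich shares turned to 1.71% and 1.12%.

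In 1889 members (35.7%, 34.4 to 37.0), the deposited peak held a strong CTCF match outside the window of the rule, at p 1e-05. Equally long windows 2000 bp away held one in 9.47% (8.71 to 10.3). At p 1e-04 the shares were 50.0% and 28.1%. The match lay a median of 305 bp from the summit (298 to 312, quartiles 230 and 373). Around it, within 50 bp, the members had 1.86 CTCF tags per site (exact Poisson interval 1.80 to 1.93), more than the 1.32 (1.27 to 1.37) at the mirror position across the summit and fewer than the 4.79 at the summit itself. IgG tags were scarce at the match, at 0.131 per site (0.115 to 0.148), beside 0.315 at the mirror position and 0.326 expected from the genome rate. IgG was also low at the motifs of the others, at 0.179 per site (0.174 to 0.184), though less so. In the 3047 others with a second match at p 1e-05 beyond 150 bp in the peak, the pattern was alike. There the second match had 2.12 CTCF tags per site, beside 1.48 at its mirror position, and 0.187 IgG tags beside 0.307. Such second matches stood in 10.9% of the others, beside 10.5% of equally long windows 2000 bp away.

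**Figure D5:**
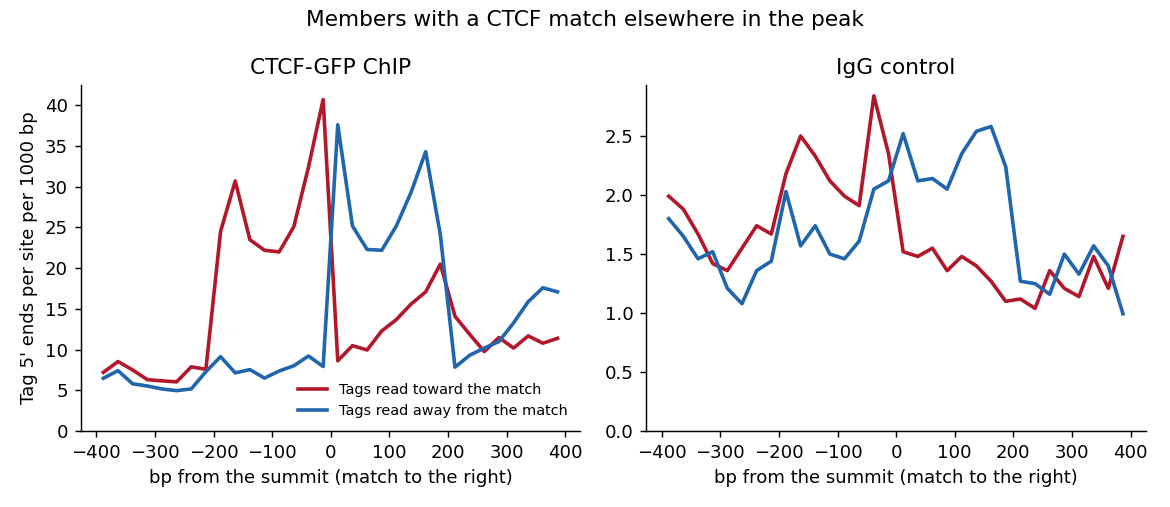
Tag 5′ ends per site per 1000 bp (y) by distance from the summit (x) in the 1889 members with a match at p 1e-05 elsewhere in the peak, turned so that the match lies to the right, for the CTCF-GFP ChIP (left) and the IgG control (right). Steps at the summit and near 200 bp were also present in the CTCF tags of summits with a motif at heights of 9 to 11. The cause of the steps was not tested. On the side of the match lie 55.2% of the CTCF 5′ ends within 300 bp. That side is favoured in advance, since the match was sought only inside the called peak.

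The CTCF tags of these members were not spread evenly about the summit. Of the 5′ ends within 300 bp, 55.2% (54.7 to 55.8) lay on the side of the match, against 47.5% (45.9 to 49.1) of those of IgG tags. The match was sought only inside the called peak, while the other side and the mirror position need not lie in it. Peaks were called from these CTCF tags over IgG, so more CTCF and less IgG toward the match is favoured in advance. The comparisons of sides and with the mirror position are therefore a description. Tag-length stretches with more than 1 exact copy in the genome made up 8.78% of positions within 50 bp of the match, 5.16% at the mirror position and 1.00% at the summit. At the others' own best match they made up 2.48%. The part of these copies in the tag numbers was not tested. Among the tallest examples, the summit in an intron of Pde4d, a cAMP phosphodiesterase gene, had a height of 34 with 36 CTCF and 0 IgG tags, a best score of -0.55 bits near the summit and 17.85 bits at 476 bp.

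Of the tall members with the lowest scores near the summit, the 4 described here had a strong match farther off. In Trp73, a paralogue of the tumour suppressor gene Trp53, the best score near the summit was -9.05 bits and that at 361 bp was 17.74 bits. In Lin54, which encodes a DNA-binding subunit of a cell cycle repressor complex, the values were -8.77 and 21.70 bits at 435 bp. Near Olfr412 they were -7.91 and 13.27 bits, and near 2310057J18Rik -6.59 and 25.14 bits.

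Other summits lay near the members more often. Within 1 kb, 606 members (11.5%, 10.6 to 12.3) had another summit, beside 3.72% (3.50 to 3.94) of the others. For 483 members (9.13%, 8.38 to 9.94) such a neighbour held a motif, which was so for 1.96% of the others.

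Put in this order, 529 members had a core shorter or longer by 1 base, 227 more (4.29%) the upstream element with CC, 1799 more (34.0%) a match at p 1e-05 elsewhere in the peak and 613 more (11.6%) one at p 1e-04. The remaining 2122 (40.1%, 38.8 to 41.4) had none of these. Median height was 12 in both of the sets with motif-like sequence, 10 in both sets with a match elsewhere and 9 in the remainder. The CTCF to IgG ratio was 14.2 (13 to 15.6) with an edited core and 13.8 (12.1 to 15.8) with the element, beside 9.56 (9.15 to 9.98) with a match at p 1e-05 elsewhere and 10.2 (9.76 to 10.6) in the remainder. Strand separation was 140 bp (133 to 146) with an edited core, an interval that holds the 141 bp of the summits with a motif, and 97 bp (92.8 to 101) with a match elsewhere at p 1e-05. The remainder had a median peak width of 612 bp, where narrow peaks are favoured by the sorting itself, since a wide peak has more room for a match. Another summit lay within 1 kb of 19.1% of it (17.5 to 20.9). Flanking windows hold each of these features too, at the levels given above, so a place in a set is not a call for a single site.

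Members lay at gene starts more often than the other summits. Within 1 kb of a protein-coding start lay 478 members (9.04%, 8.29 to 9.84) and 5.87% (5.60 to 6.15) of others, a difference of 3.17 percentage points (2.37 to 4.02). It was positive with an interval above 0 in all 6 height classes, from 1.43 points at 9 to 11 tags to 14.4 at 30 and more, where 24 members were counted. With the motif threshold at p 1e-03 the share was 6.71% beside 6.35%, and the interval of the difference included 0. Within 100 bp of a start the shares were 0.851% and 0.827%, and 203 of the 478 members (42.5%, 38.1 to 46.9) lay over 100 and up to 500 bp upstream. Their median GC content was 47.8% (47.2 to 48.8), beside 51.5% (50.8 to 51.8) in the 1639 others at starts and 58.8% at all protein-coding starts. CpG-rich windows made up 9% of them and 14% of the others at starts. The GC box GGGCGG, bound by SP factors, stood in 15.3% of them (12.3 to 18.8), in 21.1% (19.2 to 23.2) of the others at starts and in 45.6% of all starts. Windows for all starts were centred on the start itself, where only 45 members lay within 100 bp. The values for all starts thus describe another place along the promoter, and do not compare promoters of members with other promoters.

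The tallest of these lay 182 bp upstream of Timm22, which encodes the channel of a mitochondrial inner membrane translocase, at height 41 with 46 CTCF and 1 IgG tags. Its best score of 8.05 bits was close to the threshold of 8.17 bits, so its membership is a borderline call. Next to Adsl followed the summit 940 bp upstream of the histone gene Hist1h3e, with 38 CTCF and 3 IgG tags, that 501 bp upstream of Ccdc88c, with 34 and 1, and that 349 bp upstream of Cdipt, the phosphatidylinositol synthase gene, with 33 and 1.

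Elsewhere the members were placed much like the others. Introns held 43.6% of members and 42.7% of others, and exons 6.01% and 5.98%, with intervals of the difference that include 0. Between genes lay 42.5% (41.2 to 43.9) of members, below the 45.8% of others. Over 25 kb from any start lay 27.2% beside 29.1%. The tallest in introns were in Serac1, a gene of mitochondrial phospholipid remodelling, with 43 CTCF and 2 IgG tags, and in Ass1 and Zfp961, the latter with 41 and 4. In Rora, the gene of an orphan nuclear receptor, a member 34653 bp from any start had 35 and 3 tags. Far from starts were also members in Sh3gl2, Dnahc8 and Zfhx3, with 38, 35 and 41 CTCF tags and at most 2 IgG tags. The tallest between genes, 2565 bp upstream of Trmt12, had 42 and 2 tags. Among the 10 tallest were also a member in an exon of AU022252 or Gm12898 (41 and 5 tags), one near Kcng1 (42 and 0) and one near Irgm1 (38 and 3).

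A member lay within 5 kb of a start of 7.32% (6.97 to 7.67) of all protein-coding genes, and among the listed groups the ribosomal protein genes stood above this share. Of 28 pluripotency genes found in the annotation, 14 had a summit and 3 a member. These were Sox2 (height 9, 11 CTCF and 1 IgG tags), a core factor of the ESC state, the Nodal co-receptor gene Tdgf1 (10, 11 and 0) and the Nodal antagonist gene Lefty1, 337 bp upstream (14, 15 and 2). None of 19 cohesin and CTCF genes had a member, which allows a share of up to 16.8%. Of 29 lineage factors, Pax6 of eye and neural progenitors and Myod1 of muscle had one, at heights of 10 and 9.

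Of 28 imprinted genes, 12 had a summit and 4 a member. Mest, expressed from the paternal copy, had members 983 bp upstream and 230 bp downstream of annotated starts, both with a core shorter or longer by 1 base, at heights of 7 and 11. Snrpn, Airn and Zrsr1 had members with none of the features, at heights of 10, 8 and 15. Among gene families, 19 of 85 ribosomal protein genes (22.4%, 14.8 to 32.3) had a member and 51 (60%) any summit, where 32.5% of all protein-coding genes had any summit. The shares were 5.97% of 67 histone genes and 7.26% of 358 zinc finger genes. Of the 4 histone genes counted, Hist1h2ag, Hist1h2bj and Hist1h4i share a summit. No list was tested.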

How the data were processed

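CTCF ChIP-seq of R1/E ESC was analysed from 2 libraries, 1 with the GFP-antibody and 1 with IgG. The authors deposited aligned tags, 1 line each with a count of 1, and, from MACS 1.4, peaks with a score and summits with a signal, the pileup height in tags. The build is mm9, and the aligner is not given in the sources used here. No position and strand was repeated in either library.

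Work was done in Python 3.11.15 (scipy 1.17.1, pandas 2.3.3, numpy 2.4.6, matplotlib 3.10.9). Summits on chromosomes 1 to 19 were scanned on NCBI m37, with GENCODE M1 genes, using a matrix made with 1 added per column and scored against background frequencies of 0.29 (A, T) or 0.21 (C, G). Thresholds were exact for the matrix. Fragments were 187 bp long by the strand distance, so each tag was shifted 93 bp inward. Shares carry Wilson intervals, their differences Newcombe intervals, medians order-statistic intervals and tag ratios exact binomial intervals, at 95%. The scan and intervals were tested on simulated data.

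Members, gene lists and words were chosen with earlier results of these data known. Named sites were the 10 tallest members, the 5 tallest at protein-coding starts, in introns and over 25 kb from any start, 3 on each side of the threshold, the 5 with the lowest score in the upper quartile of height, and those near listed pluripotency and cohesin genes. Sites printed with a shorter core or the upstream element, and the members of the other lists, were added after the data were seen. The share of repeat-masked bases was not computed, as the reference used has no masking, and no sequence from chromosome 18 is printed. A named site and a sequence that these rules give are not reported here.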

Additional observations from a re-analysis of the deposited data

How the results depend on the processing

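Of 75 alternatives tried, 59 kept the direction of a comparison and its side of the interval, and 3 kept the number of members within 1.5 times. The number of members moved to 9116 with a motif threshold of p 1e-05, to 1730 at p 1e-03, to 10113 with a motif window of 100 bp and to 2100 among peaks with a score of at least 100. The difference in GC content ended at p 1e-05 (45.8% in members), and those at gene starts (6.71%) and between genes (43.1%) ended at p 1e-03. The share of CpG-rich windows, not different from the others as reported, turned higher in members at p 1e-05 (1.71%) and with 0.25 for each base (1.68%), changed sign with an interval that includes 0 at scores of at least 100 (1.00%, beside 0.981%), and became lower with an interval below 0 at p 1e-03 (0.347%) and with a 100 bp window (0.831%). IgG tags over the genome rate stood at 1.09 within 250 bp, no longer above the others. The causes were not tested. Other results, height, tag ratio, strand separation, matches elsewhere in the peak and neighbouring summits among them, held under the alternatives tried for them. With 8391191 and 7988889 tags, a typical member rests on about 11 CTCF tags and 1 IgG tag, so few statements can be made of a single member. No paired analysis was possible because each antibody has 1 library.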
